A study of Mus musculus with 2 samples.

Results

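The Sonic hedgehog pathway of the limb was examined as a set of 9 genes known from limb signalling, namely Shh, Ptch1, Smo, Gli1, Gli2, Gli3, Hhip, Grem1 and Hand2. The set was chosen with earlier results of these data known. Transcripts of the 9 genes were picked by gene symbol from a table of 64053 transcripts of 23157 genes. For 8 of the 9 genes 13 transcripts were found. Shh itself has no value in the table as used here, by symbol or by its Ensembl transcript, and was not analysed here, so nothing is said of its level. Strand-specific RNA-seq had been performed on distal forelimbs of E12.5 mouse embryos (strain label C57Bl6CBAF1), with 1 library from wild-type embryos and 1 from embryos carrying the HoxD Inv(TpSB1-Itga6) allele. In this allele a segment of chromosome 2 that holds regulatory islands I and II of the posterior Hoxd genes is inverted. The study's methods state that its inversions were analysed in homozygous embryos. Each library came from a pool, given by the labels as 3 pairs of forelimbs. With 1 library per genotype there is no replicate check of any difference below.

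Hedgehog ligands are secreted proteins. In the limb bud, Shh is made by posterior mesenchyme, and it is known for its part in setting the number and the identity of the digits. The ligand binds Patched, which relieves the inhibition of Smoothened at the primary cilium, and the Gli transcription factors are then processed less into repressors and act more as activators. Ptch1, Gli1 and Hhip are themselves switched on by the signal and are commonly used as its readouts. Hand2 acts upstream of Shh in posterior mesenchyme, and Grem1, a secreted BMP antagonist, links Shh to the FGF ligands of the apical ridge.

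A value below is a normalized read count, meaning the reads of a gene or transcript divided by the authors' size factor of the library. Ratios are log2 ratios of inversion over wild type with a pseudocount of 1, which makes the ratio of a gene with few reads a little too small. Each ratio has a 95% interval, computed by the exact Clopper-Pearson method from the part of a gene's reads that came from the inversion library. Such an interval holds counting error alone. It sets one library against the other and says nothing of the spread between embryos of a genotype. The libraries held 9280660 and 9466154 reads, wild type first. The wild-type sample is titled wtFL and the inversion sample invDFL, while the names of the deposited values have DFL for both. The wild-type values were matched to wtFL as the only wild-type sample. Markers of the labelled tissue are given for description, since reads of such markers alone do not tell distal forelimb from whole forelimb. Each of the 7 markers of distal limb mesenchyme, Hoxa13, Msx1 and Prrx1 among them, had reads in both libraries, with a sum of 12610 normalized reads in wild type against 11245 in the inversion. This sum includes Hoxd13, one of the posterior Hoxd genes served by the inverted islands, which by itself went from 2292 to 1503 (log2 ratio -0.61, 95% interval -0.70 to -0.51). The forelimb gene Tbx5 had 1684 and 1935 normalized reads, and the hindlimb genes Tbx4 and Pitx1 had 430 and 394 reads and 44 and 29 reads. Xist had 2607 wild-type reads against 13, and 4 Y-linked genes had log2 ratios from 1.45 to 2.13, so the sex of the embryos differed between the pools and cannot be told apart from genotype.

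The promoters of 3 members are shown first. Hhip is shown because its ratio stood furthest from 0, Ptch1 because it is the other hedgehog-binding readout gene, and Gli2 because it alone among the members with a promoter held the core of the Gli recognition motif. The sequences are the 250 bases before the annotated start in RefSeq on GRCm38.p6, read 5′ to 3′ on the strand of the gene, which is the minus strand for each of them. For Ptch1 this start lies inside the span that GENCODE M21 gives the gene. The Hhip window is chr8:80058009-80058258, that of Ptch1 chr13:63565736-63565985 and that of Gli2 chr1:119053620-119053869. Capitals mark the core motif ACCACCC or its reverse complement GGGTGGT.
Hhip: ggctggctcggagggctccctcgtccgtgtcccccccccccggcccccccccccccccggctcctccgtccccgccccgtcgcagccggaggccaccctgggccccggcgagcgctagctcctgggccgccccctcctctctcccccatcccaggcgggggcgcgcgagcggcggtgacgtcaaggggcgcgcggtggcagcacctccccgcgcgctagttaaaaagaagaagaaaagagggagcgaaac
Ptch1: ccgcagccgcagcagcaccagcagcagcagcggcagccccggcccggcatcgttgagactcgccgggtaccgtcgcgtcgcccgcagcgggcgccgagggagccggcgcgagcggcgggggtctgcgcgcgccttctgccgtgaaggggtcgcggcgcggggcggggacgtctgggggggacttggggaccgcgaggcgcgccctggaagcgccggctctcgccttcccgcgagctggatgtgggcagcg
Gli2: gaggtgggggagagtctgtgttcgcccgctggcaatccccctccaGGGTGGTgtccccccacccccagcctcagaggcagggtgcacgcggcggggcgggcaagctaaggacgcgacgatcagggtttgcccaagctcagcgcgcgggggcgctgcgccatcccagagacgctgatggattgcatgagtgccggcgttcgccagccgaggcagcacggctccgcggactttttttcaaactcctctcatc

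Promoters were available for 7 of the members, without Gli1 and Shh. The motif GACCACCCA, searched on both strands, was found in 0 of these 7 windows of 300 bases and in 0.253% of all 32851 promoters of the same length. Its core ACCACCC, which lies within the longer motif, was found in the window of Gli2, at -205 from the start, and in 4.61% of all promoters. These matches describe the letters in the windows and nothing more. The printed sequences were rich in G and C. The share was 76.0% for Hhip, 78.4% for Ptch1 and 67.2% for Gli2, against a median of 52.4% over all promoters, with 28, 41 and 22 CpG dinucleotides against a median of 6. Hand2 had the lowest share of the 7, at 49.2%.

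Among the 8 members, 0 rose by 2-fold or more and 0 fell by as much in the inversion library. The same rule called 3.99% of the 16756 genes tested higher and 0.483% lower, where genes tested are those whose mean over both libraries reached 10 normalized reads. The ratios of the members lay between -0.91 for Hhip and 0.16 for Grem1, with a median of -0.12, beside a median of -0.02 over all these genes. The ratio was below 0 for 5 members (Hhip, Gli3, Ptch1, Smo and Gli2) and above 0 for 3 (Grem1, Gli1 and Hand2). Of all 16756 genes tested, 8947 had a ratio below 0 and 7809 above 0. For each of the 5 members below 0 the interval stayed below 0 under the size factors of the authors. For each of the 3 above 0 it included 0. Intervals below 0 were found for 13.0% of all genes tested and intervals above 0 for 16.7%. The interval narrows with the number of reads. Each of the 8 members had a mean above 100, and among genes at or above that level these shares were 17.0% and 16.9%.

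**Figure D1:**
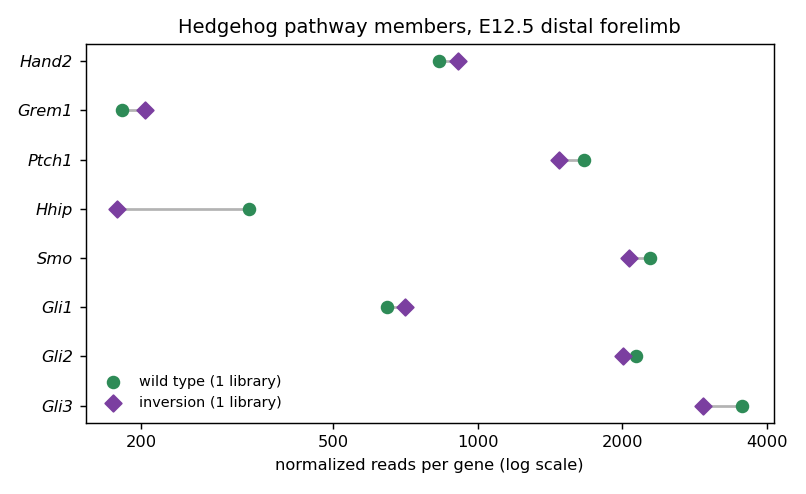
Normalized reads of the 8 members (horizontal log axis) in the wild-type library (circles) and the inversion library (diamonds), with a line joining both values of a gene. The longest line is that of Hhip, from 334 to 178, while the other pairs of symbols lie close together.

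The receptors were taken first. Ptch1, the receptor that binds the ligand and holds Smoothened back, lies on chromosome 13 from 63508328 to 63573598 (GENCODE M21 on GRCm38). It had 1663 normalized reads in wild type against 1476 in the inversion, a log2 ratio of -0.17 (95% interval -0.27 to -0.07). Smo, the transducer that Patched inhibits, is on chromosome 6 (29735503 to 29761365). Its level was 2281 in wild type and 2069 in the inversion, with a log2 ratio of -0.14 (-0.23 to -0.05). Both genes were slightly lower in the inversion library, and 17.8% of all genes tested had a ratio below that of Ptch1.

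Hhip encodes a membrane protein that binds hedgehog ligands and so limits their range, and it is itself a target of the signal. It lies on chromosome 8 from 79965851 to 80058006. With 334 normalized reads in wild type against 178 in the inversion, from 330 and 180 reads, its log2 ratio was -0.91 (95% interval -1.18 to -0.64), a level 1.88-fold lower. It was the member nearest to the 2-fold threshold, which its interval includes. Only 0.686% of the genes tested had a lower ratio, and at a threshold of 1.5-fold Hhip was 1 of 8 members called lower, beside 2.04% of all genes tested. In whole tissue, fewer cells of a type and less RNA per cell cannot be told apart.

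**Figure D2:**
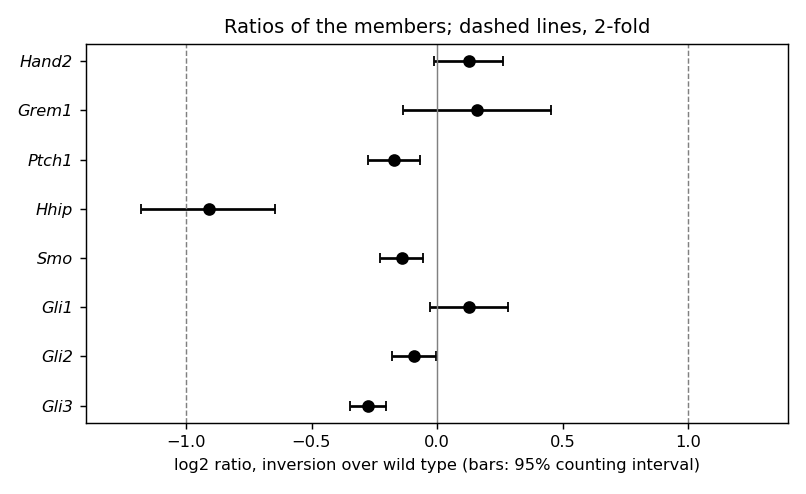
Log2 ratio of inversion over wild type for each member (points) with its 95% counting interval (bars); dashed lines mark 2-fold and the solid line no difference. Hhip is at -0.91 with an interval reaching past the 2-fold line, and the other 7 members lie between -0.27 and 0.16.

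Of the Gli factors, Gli2 and Gli3 had ratios below 0 and Gli1 did not. Gli1, an activator that depends on the signal for its transcription (chromosome 10, 127329882 to 127341974), had 648 normalized reads in wild type against 708 in the inversion. Its log2 ratio was 0.13 (95% interval -0.03 to 0.28), so a difference was not detectable at this depth. Gli2, a factor that serves mostly as an activator (chromosome 1, 118834132 to 119053619), had 2139 and 2006, a log2 ratio of -0.09 (-0.18 to -0.0039). Scaled to total reads, its interval included 0 (-0.17 to 0.0036). Gli3, the source of the main Gli repressor in the limb bud (chromosome 13, 15463235 to 15730026), had 3554 and 2938. Its log2 ratio of -0.27 (-0.35 to -0.20) was the lowest of the 3 factors, and 8.12% of the genes tested were below it.

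Within a library, the reads of one gene per read of another do not depend on the size factors. These pairs were chosen after the values were seen. There were 0.182 reads of Gli1 per read of Gli3 in wild type and 0.241 in the inversion, 1.32 times as many (95% interval 1.17 to 1.49). Gli1 per Ptch1 was 1.23 times as high (1.08 to 1.4). In contrast, Hhip per Ptch1 was 0.599 times as high (0.490 to 0.731), and Hhip per Gli1 0.487 times (0.392 to 0.604). Summed over transcripts, the 3 readout genes therefore did not keep their proportions between the libraries. Hhip was lower, Ptch1 slightly lower and Gli1 not lower. For Ptch1 this depends on the transcript. ENSMUST00000021921 had a log2 ratio of -0.24 (-0.39 to -0.10), while the interval of ENSMUST00000169233, at -0.04, included 0 (-0.18 to 0.11).

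**Figure D3:**
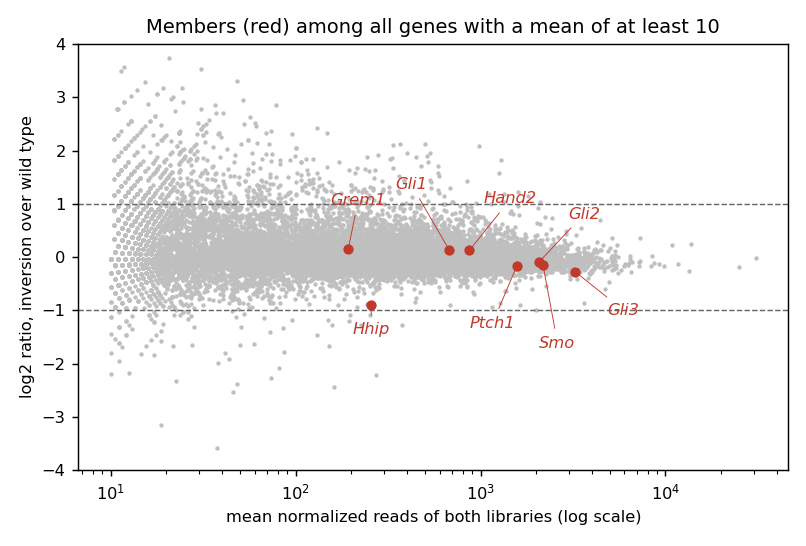
Log2 ratio of inversion over wild type (vertical axis) against the mean normalized reads of both libraries (horizontal log axis) for the 16756 genes tested (grey) and the 8 members (red); dashed lines mark 2-fold. The axis leaves out 3 genes with a ratio beyond 4 in either direction. Hhip lies at the lower edge of the cloud, and the other members lie within it.

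Hand2 and Grem1 had ratios above 0, with intervals that include 0. Hand2, a transcription factor that acts on Shh in posterior mesenchyme (chromosome 8, 57320983 to 57324633), had 833 normalized reads in wild type against 910 in the inversion, a log2 ratio of 0.13 (95% interval -0.01 to 0.26). Grem1 lies on chromosome 2 (113746164 to 113758646), the chromosome that carries the inversion, but 39.1 Mb from Hoxd13. Its values were 182 and 203, a log2 ratio of 0.16 (-0.14 to 0.46). Grem1 had the fewest reads of the members in wild type, and its interval was the widest of the 8.

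Levels of different genes were compared per kilobase of transcript, over transcripts with a length in GENCODE M21. In wild type the order was Smo (604 normalized reads per kb), Gli3 (435), Hand2 (354), Gli2 (322), Gli1 (159), Ptch1 (108), Hhip (88.7) and Grem1 (43.9). In the inversion library Hand2 (387) stood above Gli3 (360), and Grem1 (49.0) above Hhip (46.0), while Smo remained first at 547. The place of 2 genes depends on the transcripts used. Only 50% of the wild-type reads of Ptch1 were on a transcript with a length, and with its reads summed over the longest transcript its level was 215, above that of Gli1 at 160. Hhip on its longest transcript was at 36.8, below Grem1.

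The transcripts of Hhip were both lower. The protein-coding transcript ENSMUST00000079038 had 261 reads in wild type against 144 in the inversion (log2 ratio -0.89, 95% interval -1.20 to -0.60). For the shorter ENSMUST00000155850, annotated as a processed transcript, the reads were 69 and 36 (-0.96, -1.60 to -0.37). It held 20.9% of the gene's reads in wild type (95% exact binomial interval 16.6% to 25.7%) and 20.0% in the inversion (14.4% to 26.6%), and these intervals overlap.

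Ptch1 was listed with 4 transcripts, of which ENSMUST00000021921 alone is in GENCODE M21. That transcript had 821 and 711 reads, wild type first (log2 ratio -0.24, 95% interval -0.39 to -0.10). The equally abundant ENSMUST00000169233 had 765 and 764 (-0.04, -0.18 to 0.11). The rare ENSMUST00000172086 had 46 and 13 reads (-1.78, -2.87 to -0.95), and its share of the gene was 2.80% (2.06% to 3.72%) in wild type and 0.870% (0.464% to 1.48%) in the inversion. For ENSMUST00000170763 the reads were 10 and 7. For Gli1, nearly all reads were on ENSMUST00000026474, with 637 and 702, and the rare ENSMUST00000105252 had 3 and 15. The remaining members were listed with 1 transcript each. On the annotation, Smo overlaps Gm13717 on its own strand, which had 2 and 3 reads, and Gli1 overlaps Arhgap9 on the opposite strand, which had 66 and 53. How reads that fit several transcripts were divided is not given in the sources used here. If such reads were listed under each transcript, the summed reads of Ptch1, Hhip, Gli1 and other genes with several transcripts count them more than once, and the intervals, binomial calls and within-library ratios based on the sums are too narrow or too firm.

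**Figure D4:**
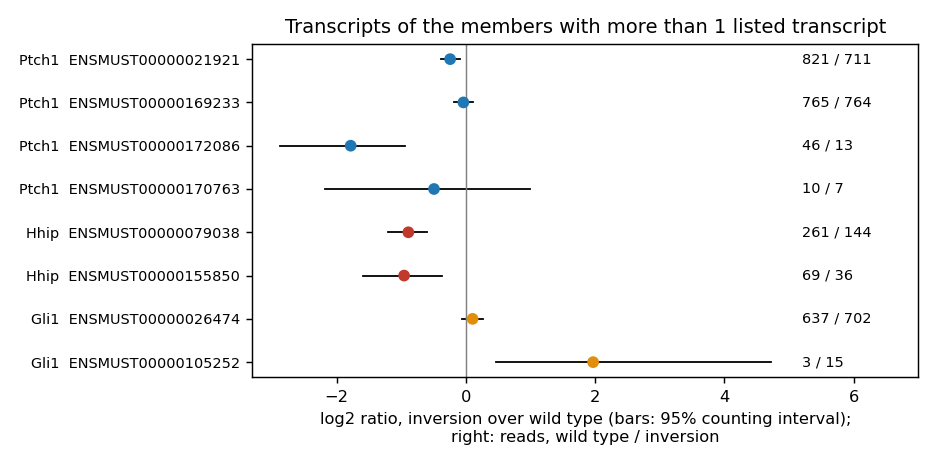
Log2 ratio of inversion over wild type for the transcripts of Ptch1, Hhip and Gli1 (points) with 95% counting intervals (bars); the reads of each library stand at the right, wild type first. Both transcripts of Hhip lie below 0, whereas those of Ptch1 range from -1.78 to -0.04.

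Beyond the members, 77 genes in 8 lists by role were examined, each counted once where lists share it. The members are among them. Values were found for 75 of them, and 68 passed the mean of 10. Of these, 1 was at least 2-fold higher, 0 at least 2-fold lower, and the median log2 ratio was 0.04. The 1 gene at least 2-fold higher stands beside 3.99% of all genes tested. The intervals of 19 lay above 0 and those of 16 below, while 33 included 0, where 16.7% of all genes tested had an interval above 0 and 13.0% below (16.9% and 17.0% at a mean of 100 or more).

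Among genes for the ligands and their release, 5 of 9 passed the filter and 1 was at least 2-fold higher. This was Scube2, a secreted protein that helps to free the lipid-bearing ligand from the cell, with 18 and 53 reads, a log2 ratio of 1.47 (95% interval 0.73 to 2.38). Its relative Scube1 had 640 normalized reads in wild type against 1076 in the inversion (0.75, 0.61 to 0.89), and the most abundant of the family, Scube3, had 1821 and 1936 (0.09, -0.0047 to 0.18). Ihh, the ligand of growing cartilage, had 166 and 124 normalized reads (-0.41). Its 2 listed transcripts had identical reads, 82 and 63 each, and the interval of either alone (-0.91 to 0.08) includes 0. Hhat, which adds a fatty acid to the ligands, was at -0.05 (-0.29 to 0.19). Dhh, chosen after its values were seen, had 4 and 3 reads.

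Of the receptors and co-receptors, 8 of 9 passed the filter and 0 were at least 2-fold changed, with a median of -0.08. Cdon and Gpc3, which bind hedgehog ligands at the cell surface, were at -0.03 and -0.04, both with intervals that include 0. The co-receptor Boc had 1531 normalized reads in wild type against 1975 in the inversion (0.37, 0.27 to 0.46).

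The list for transduction, with cilium genes, kinases and ubiquitin ligases, was present whole, as each of its 29 genes passed the filter. None was at least 2-fold changed (0 higher and 0 lower), and the median was 0.08. The ratio was above 0 for 19 genes and below 0 for 10, where 7809 of all 16756 genes tested were above 0 and 8947 below. The intervals of 9 genes of the list lay above 0 and those of 4 below, while 16 included 0. Among the most abundant were Csnk1a1 (0.16), Prkar1a (-0.08) and Gsk3b (-0.13), parts of the kinase machinery that marks Gli proteins for processing. Fuz, a ciliary planar polarity gene named after its values were seen, had the highest ratio of the list, from 256 to 441 normalized reads (0.78, 0.56 to 1.01).

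The target genes, which include Gli1, Ptch1 and Hhip, had a median of 0.12 over 12 genes, with 8 above 0 and 4 below. Of all 16756 genes tested, 7809 were above 0 and 8947 below. Hhip was the lowest of the target genes. Ccnd1, a cyclin of the G1 phase, was at -0.13 (-0.23 to -0.03), Jag1, a Notch ligand, at 0.29 (0.15 to 0.43), and Rab34, a small GTPase of the cilium, at 0.11 (-0.03 to 0.25). Bmp2, named after its values were seen, had 725 and 554 normalized reads (-0.39, -0.55 to -0.23). The list thus held ratios on both sides of 0, with 4 intervals above and 4 below. Of all genes tested, 16.7% had an interval above 0 and 13.0% below (16.9% and 17.0% at a mean of 100 or more).

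In the signalling loop of the limb bud, 12 of 15 genes passed the filter, with a median of -0.08, and 0 were at least 2-fold changed. Etv5, a transcription factor induced by FGF signalling, was at -0.44 (-0.60 to -0.28), Bmp7 at -0.33 (-0.45 to -0.21) and Tbx3, a T-box gene of the limb margins, at 0.28 (0.13 to 0.44). The ridge ligand Fgf4, chosen in the same way as Bmp2, had 1 and 3 reads, too few to compare. Of 5 genes known from the anterior limb, 4 passed the filter, with a median ratio of 0.25. Alx4, a homeobox gene, was at 0.30 (0.10 to 0.50), and Pax9, a paired box gene, at 0.21 (0.05 to 0.36). Lmbr1, whose intron holds the limb enhancer of Shh, was at 0.41 (0.13 to 0.70), and Fmn1, next to Grem1 and known for Grem1 enhancers, was at -0.28 (-0.57 to 0.01).

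**Figure D5:**
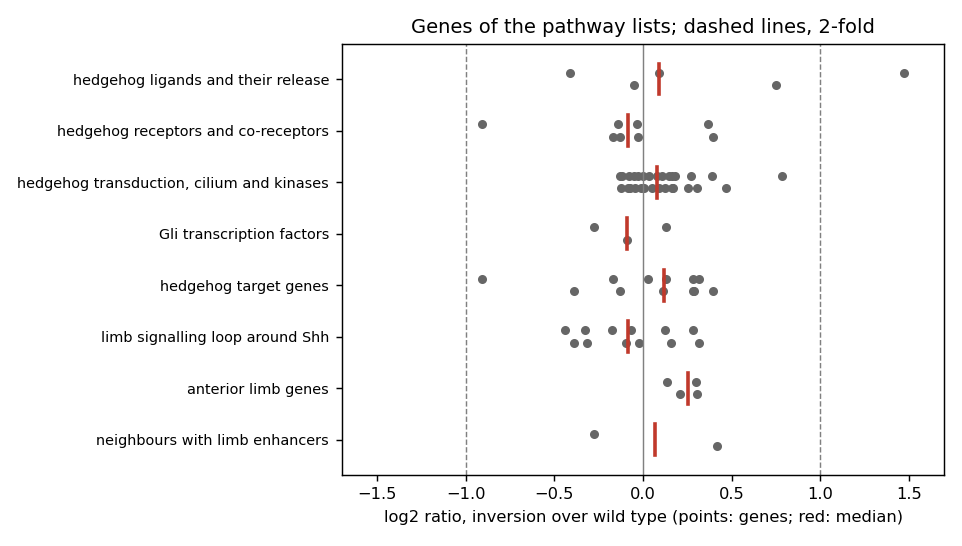
Log2 ratio of inversion over wild type for each gene of the 8 lists that passed the filter (grey points), with the median of each list (red bars) and dashed lines at 2-fold. Scube2 at 1.47 is the point beyond a dashed line, and Hhip at -0.91 is the lowest point of both lists that hold it.

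Markers of other cell types in the pools were summed beside these results. The sum of the 7 cartilage markers was 12160 normalized reads in wild type against 14225 in the inversion, with 4 ratios above 0 and 3 below. The 8 muscle markers summed to 1104 and 2139, with 7 above 0, and the 8 markers of surface ectoderm and ridge to 5643 and 4886, all 8 below 0. The 6 Schwann and neural crest markers summed to 1042 and 1100, the 4 endothelial ones to 3303 and 3102, the 4 red cell ones to 11214 and 9922 and the 4 macrophage ones to 772 and 729. The 5 proximal limb markers summed to 1389 and 1528, with 4 of the ratios below 0. Beside these counts of ratios, 7809 of all genes tested were above 0 and 8947 below. For floor plate and notochord, 3 of 4 markers had a value and summed to 5.07 and 36.5, with Foxa2 at 0 reads in wild type against 1 in the inversion, and T, named after its values were seen, at 3 and 33. Each of the other lists had all its genes above 0 in both libraries. The part of these markers in the values of Hhip and the other members was not tested.

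A test on the recovered whole reads compares the 2 libraries and not the genotypes. It calls genes with many reads more readily than genes with few. The shares of all genes tested given beside its calls were not matched to the members for the number of reads. By an exact two-sided binomial test with Benjamini-Hochberg adjustment over all genes tested, 4 members were called lower (Hhip, Gli3, Ptch1 and Smo) and 0 higher. It called 7.87% of all genes tested lower and 12.3% higher. The adjusted p-value of this exact test was 1.4e-10 for Hhip, at a ratio of -0.91, and 1.2e-12 for Gli3, at a ratio of -0.27. For Gli2 (0.14), Gli1 (0.28), Hand2 (0.21) and Grem1 (0.54) the adjusted p-values of the exact test were above 0.05.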

How the data were processed

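RNA from E12.5 distal forelimbs was sequenced as poly(A)-selected, strand-specific libraries, 1 per genotype. Per the labels, the authors mapped reads with Bowtie2 (version not given in the sources used here) to NCBIM37 (mm9). After assignment to transcripts in HTSstation, the authors deposited signal values, which are reads divided by a size factor, with 0.5 for no reads. Columns of the authors' own comparison (a ratio of inversion over wild type, its log2 and a p-value, plain and adjusted, per transcript) were deposited too and not used.

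Whole reads were recovered from 100% of values (tolerance 0.01), 0.5 being read as 0. Transcripts were summed by symbol and chromosome. Ratios use a pseudocount of 1, a mean of at least 10, and a 2-fold threshold. No test of the genotypes could be made. As an alternative, an exact two-sided binomial test with Benjamini-Hochberg adjustment called 2068 genes higher and 1318 lower. Positions and lengths come from GENCODE M21 (GRCm38), matched by transcript identifier for 88.1% of transcripts, and no coordinate was converted. Promoters come from RefSeq (GRCm38.p6).

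The members, gene lists and alternatives were chosen with earlier results of these data known. Named were all members, list genes changed at least 2-fold with a mean of at least 10, list genes with at most 3 reads in both libraries together, and the 4 most abundant genes of each list. Others are given as named after their values were seen, and some genes of the lists are not reported here by name. The steps were run on simulated reads with planted fold changes and counting error alone. That simulation held no spread between embryos, so it says nothing of differences between genotypes. Scripts ran in Python 3.11.15 with scipy 1.17.1, pandas 2.3.3, numpy 2.4.6 and, for plots, matplotlib 3.10.9.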

Additional observations from a re-analysis of the deposited data

How the results depend on the processing

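No paired analysis was possible because each genotype has 1 library, and for the same reason no replicate could be left out. Of 48 values of single members under other scalings, pseudocounts and choices of transcripts, 48 stayed within their counting interval. Much of this was fixed in advance. A member listed with 1 transcript cannot change with the choice of transcript, and a scaling shifts all genes by the same amount. The ratio of Hhip ranged from -0.92 to -0.89, that of Gli3 from -0.29 to -0.27 and that of Ptch1 from -0.24 to -0.16. Scaled to total reads, the interval of Gli2 included 0. The median of the members ranged from -0.13 to -0.11.

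Counts depended on the threshold, the filter and the transcripts. At 1.5-fold, 1 member was lower (Hhip), and 3 genes of the lists were higher (Fuz, Scube1 and Scube2) and 1 lower. At that threshold 2.04% of all genes tested were lower, and the share higher is not given here. Shares of all genes are also not given for the 4-fold threshold, the other filters and the other choices of transcripts. Those counts are description only. At 4-fold, 0 genes of the lists were higher, as with a mean of at least 100. Without the filter 2 were lower, both with few reads (Disp2 and Pax1). With the transcript of highest mean 2 were higher (Fuz and Scube2). Over protein-coding transcripts only, 1 was lower (Fmn1), and the median of Lmbr1 and Fmn1 was -2.25, which depends on the pseudocount because Fmn1 then had 0 inversion reads. By the exact binomial test 4 members were lower, beside 7.87% of all genes tested. Depth limits Grem1 and the rare transcripts.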

Other observations

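Some transcripts of the listed genes stood apart, and they were chosen after their values were seen. Fmn1 was listed with 2 transcripts. The one that GENCODE M21 holds, ENSMUST00000081349, held 29 wild-type reads and 0 inversion reads, and the upper end of the 95% interval of its log2 ratio was -2.92. The other, ENSMUST00000028542, had 196 and 190 reads (log2 ratio -0.08, 95% interval -0.38 to 0.21).

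The 4 transcripts of Scube1 each had a ratio above 0. The ratio was 0.87 for ENSMUST00000171496, with 321 and 603 reads, and 0.29 for ENSMUST00000076060, with 74 and 93 reads and an interval that includes 0 (-0.16 to 0.75). For Scube2, the annotated protein-coding transcripts ENSMUST00000007423 and ENSMUST00000106728 had 8 and 24 reads and 5 and 15 reads, wild type first in each pair. Of its other transcripts, ENSMUST00000152030 had 5 and 5 reads (log2 ratio -0.03, 95% interval -2.16 to 2.08) and ENSMUST00000132113 had 0 and 9.

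T, a T-box gene known from the notochord and listed here as its marker, had 3 wild-type and 33 inversion reads, of which 30 were on ENSMUST00000074667. Foxa2, another marker of that list, had 0 and 1.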
